A study of Mus musculus with 4 samples.

Results

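The neuropeptide genes Sst, Npy, Cck, Vip, Penk, Pdyn, Tac1, Crh, Nts and Cort were followed through the neurons of the mouse hippocampus. They are 10 of the 20211 genes listed in all 4 libraries of the study and were taken as a list of names, with no threshold on their values, when earlier results of these data were known. Nuclear RNA was counted by single-nucleus sequencing in 1 library each from wild-type mice and from mice labelled as lacking monoacylglycerol lipase, MAGL, globally (Total/global MAGL-KO), in astrocytes only (Astrocyte specific MAGL-KO) or in neurons only (Neuron specific MAGL-KO). The gene for this enzyme is Mgll. MAGL degrades the endocannabinoid 2-arachidonoylglycerol, and the title of the series concerns an excess of endocannabinoids in neurons and its relation to cognition. The labels do not give the strain, age or sex, the number of animals behind a library, the deleted part of Mgll or the Cre driver of either cell-specific knockout. With 1 library per genotype no difference below has a replicate check, no test was made, and every interval is a 95% interval that covers counting error only.

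Neuropeptides are made as precursor proteins, cut by proteases in the secretory pathway, stored in dense-core vesicles and released on sustained firing to act on G-protein-coupled receptors. In the hippocampus most of them mark types of GABA-releasing interneuron and modulate the fast transmitter those cells also release. Somatostatin (Sst) is the classic peptide of dendrite-targeting interneurons, and cortistatin (Cort) is its close relative. Cholecystokinin (Cck) marks the perisomatic basket cells that carry the cannabinoid receptor CB1, and it is also made by pyramidal neurons. Dynorphin (Pdyn) and enkephalin (Penk) are opioid peptides known in granule cells of the dentate gyrus.

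Several of these genes are known to be regulated through cAMP response elements, so the bases just before their start sites are shown. The palindrome TGACGTCA and its core site TGACG, which reads CGTCA on the other strand, were searched on both strands of 300-base promoter windows, 250 bases before to 50 after the start, in RefSeq on GRCm38.p6. A window was found for 8 members, all but Penk and Crh. The core site was present for 6 of these 8 members against 20.8% of 32851 promoters, and the full palindrome, which holds the core site on each strand, was present in Sst only, against 1.79% of promoters. A match describes the letters and is not evidence of binding. The 100 bases before the start are given 5′ to 3′ on the gene's strand, with core sites and the palindrome in capitals, for the 5 members with a match in that stretch and for Npy, which has none.
Sst (chr16:23890845-23890944, minus strand): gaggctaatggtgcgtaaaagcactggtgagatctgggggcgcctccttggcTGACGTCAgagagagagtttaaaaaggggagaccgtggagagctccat
Cort (chr4:149126764-149126863, minus strand): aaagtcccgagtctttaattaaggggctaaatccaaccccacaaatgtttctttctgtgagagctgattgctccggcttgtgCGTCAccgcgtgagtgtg
Vip (chr10:5639118-5639217, plus strand): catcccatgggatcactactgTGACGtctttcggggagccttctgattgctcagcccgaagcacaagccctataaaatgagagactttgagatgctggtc
Cck (chr9:121495695-121495794, minus strand): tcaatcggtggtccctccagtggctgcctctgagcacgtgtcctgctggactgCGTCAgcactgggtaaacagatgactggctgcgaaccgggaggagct
Tac1 (chr6:7554961-7555060, plus strand): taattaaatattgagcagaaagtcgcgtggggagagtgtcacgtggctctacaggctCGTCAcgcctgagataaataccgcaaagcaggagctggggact
Npy (chr6:49822610-49822709, plus strand): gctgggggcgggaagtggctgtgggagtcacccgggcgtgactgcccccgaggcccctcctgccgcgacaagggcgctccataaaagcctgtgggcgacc

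The libraries held 9369 (wild type), 31243 (total knockout), 10731 (astrocyte knockout) and 8945 (neuron knockout) barcodes, with median UMIs (counted RNA molecules) per nucleus of 8904, 5456, 7448 and 8446. In neurons the level of Mgll did not follow the labels: in excitatory neurons it was 102, 79.3, 106 and 106 CPM, the UMIs of a gene scaled to all UMIs of the class in that library in that order, and in inhibitory neurons 118, 110.02, 126 and 119. Since the deleted part is unknown, this does not check the labels, and each knockout library is named by its label only, as total-labelled, astrocyte-labelled or neuron-labelled. The total-labelled library stood apart in other ways. Its nuclei were 83.5% male by a Y-linked UMI without Xist and 0.0259% female by the reverse, whereas the other 3 libraries held between 40.7% and 46.4% female nuclei. It held 539 nuclei with markers of striatal medium spiny neurons against 18, 1 and 5 elsewhere, and 10.4% of its nuclei carried markers of more than 1 lineage against 3.54% to 6.52%. Levels of a neuropeptide are CPM from the UMIs summed over all nuclei of a class in a library, and levels are compared between libraries within a gene, not between genes. Nuclei were assigned to classes by panels of marker genes that hold none of the 10 members, and the class names mean resemblance on those markers. The number of inhibitory nuclei was 1108, 4034, 1546 and 1521, in the order of libraries used throughout: wild type, total-labelled, astrocyte-labelled, neuron-labelled. Of the 60288 barcodes, 1580 barcode sequences occurred in more than 1 library.

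Counting classes with at least 100 UMIs of the gene and at least 10% of its highest wild-type level, 9 members were found in 1 to 4 typed classes and Cck in 7 of 9. The classes ranked here are the 9 typed hippocampal ones, without medium spiny, untyped and glial nuclei. Among them, in the wild-type library, Sst was highest in Sst-type nuclei, Cort in Sst-type, Npy in Lamp5-type, Tac1 in Pvalb-type, Vip, Crh and Penk in Vip-type, Cck in Cnr1-type, Pdyn in dentate granule and Nts in CA1 pyramidal nuclei. Among these 9 the leading class was the same in all 4 libraries for Sst, Vip, Penk, Tac1, Crh and Cort. For Cort in the astrocyte- and neuron-labelled libraries the interval of the leading class overlapped that of the next, Pvalb-type. For Npy the Sst-type class led in the 3 knockout libraries, and its interval overlapped that of the Lamp5-type class in the astrocyte- and neuron-labelled libraries. The leading class of Cck was Vip-type in the neuron-labelled library, that of Pdyn was Sst-type in the 3 knockout libraries, and that of Nts was the subicular or cortical class in the astrocyte- and neuron-labelled libraries. The intervals of first and second class overlapped in each of these Cck and Pdyn cases, and for Nts in the wild-type and total-labelled libraries. Medium spiny nuclei, a striatal type, held more than the leading class of 3 members. In the 18 wild-type and 539 total-labelled ones Penk was 741 and 552 CPM, Tac1 344 and 163 and Pdyn 52.9 and 23.7. Nts was also higher in untyped excitatory nuclei, at 18.9 CPM astrocyte-labelled and 27.5 neuron-labelled, than in the leading typed class of those libraries. The intervals overlapped in the astrocyte-labelled library and not in the neuron-labelled one. The members' levels by class were seen while the gating rule was settled, so this pattern is a description and no check of the gates.

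**Figure D1:**
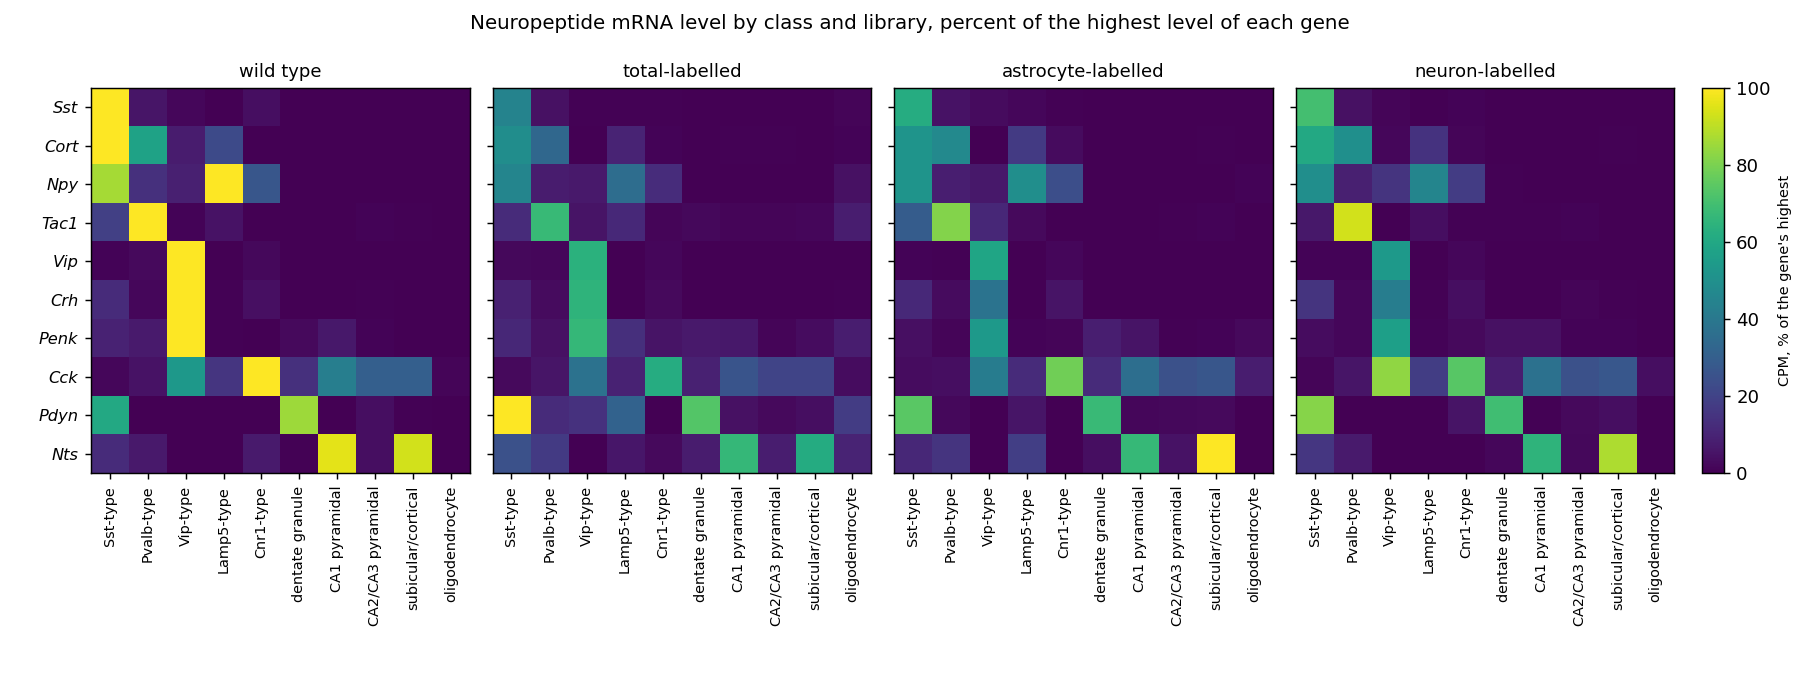
Level of the 10 neuropeptide genes in 9 neuronal classes and in oligodendrocytes, 1 panel per library, as a percent of the highest CPM that gene reached in any class and library shown. Rows are genes and columns are classes; most genes are bright in 1 or 2 columns, and the brightest cell of a gene lies in the wild-type panel for all genes but Pdyn and Nts. Single bright cells can be brighter elsewhere, as Cck in Vip-type nuclei is in the neuron-labelled panel.

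Sst encodes somatostatin and lies on chromosome 16 (GRCm38, 23889573 to 23890958, minus strand). In Sst-type inhibitory nuclei the wild-type level was 4988 CPM (4904 to 5074), the total-labelled 2239.7 (2202 to 2278), the astrocyte-labelled 3091 (3023 to 3161) and the neuron-labelled 3492 (3433 to 3552). Wild type was the highest of the 4 and the total-labelled library the lowest, with no overlap of counting intervals. Vip, a gene of another interneuron type, stood in the same Sst-type nuclei at 23.1, 53.5 (47.8 to 59.7), 22.6 and 24.0 CPM, with a Vip UMI in 5.19% of total-labelled nuclei against 1.87% to 2.60% in the others, and the part of such admixture in the Sst difference was not tested. Against wild type the log2 ratio was -1.16 (-1.19 to -1.12), -0.69 (-0.73 to -0.65) and -0.51 (-0.55 to -0.48). Of all 10295 genes tested in Sst-type nuclei, 5.65%, 6.73% and 6.1% lay lower than in wild type by at least 1.5-fold, the fold used throughout, and Sst passed it in the total- and astrocyte-labelled libraries. The level within the nuclei that carried Sst lay below wild type in each knockout library, whereas the interval of the share of such nuclei lay below the wild-type one in the total-labelled library and overlapped it in the other two. Nuclei with at least 3 Sst UMIs, called carriers here, made up 83.9% (78.9 to 88.1), 69.4% (66.3 to 72.4), 79.0% (74.1 to 83.3) and 80.7% (76.4 to 84.6) of the class. Within carriers Sst stood at 5669, 3059, 3751 and 4089 CPM. Both carrier measures depend on depth, since 3 UMIs are a higher CPM in a shallower nucleus. Nuclei with fewer than 2000 UMIs were left out of thinned shares here and below, which took 2, 12, 3 and 1 nuclei from this class. After thinning the remaining nuclei to 2000 UMIs, a Sst UMI was left in 83.4%, 70.2%, 78.2% and 80.7% of them. Before thinning the shares of all nuclei of the class were 86.1%, 76.1%, 83.4% and 85.2%, at median depths of 9390, 5974, 7295 and 9284 UMIs. In oligodendrocytes, which do not make somatostatin, the unthinned share was 1.05% of 1714 total-labelled nuclei at a median of 1317 UMIs and 0 in the other 3 libraries. A count of 0 there, taken as at most 3 nuclei, allows a share of up to 0.820% in 366 wild-type, 5.77% in 52 astrocyte-labelled and 4.29% in 70 neuron-labelled oligodendrocytes, and the upper ends of the exact intervals are 1.00%, 6.85% and 5.13%. Their median depths were 2040, 2053 and 1937 UMIs.

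Nuclei of both sexes were present in 3 libraries. Male wild-type Sst-type nuclei held 4753 CPM of Sst and female ones 5210.3. The corresponding values were 3246 and 3043 in the astrocyte-labelled library and 3324 and 3785 in the neuron-labelled library, and male total-labelled nuclei held 2258. Both wild-type values lay above every value of the other libraries. With male nuclei only the astrocyte-labelled ratio was -0.55, inside 1.5-fold. Pvalb-type nuclei, where Sst was second highest in wild type, held 273, 218, 239 and 233 CPM, and the order there differed between the sexes. Male nuclei held 329 CPM in wild type and 211, 170 and 201 in the others, whereas female nuclei held 236 in wild type, 323 astrocyte-labelled and 242 neuron-labelled. Summed transcripts of 84 ribosomal protein genes were also highest in the wild-type Sst-type nuclei, at 2904 CPM against 2484, 2156 and 2033, and their part in the Sst difference was not tested.

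Cort encodes cortistatin, which binds somatostatin receptors, on chromosome 4 (149125034 to 149126763, minus strand). Cort in Sst-type nuclei stood at 103 CPM (91.0 to 116) for wild type, 50.3 (44.8 to 56.3) for total-labelled, 53.3 (44.6 to 63.2) for astrocyte-labelled and 62.2 (54.6 to 70.7) for neuron-labelled nuclei. Wild type was again the highest, and the intervals of the 3 knockout libraries overlapped one another. These are log2 ratios of -1.03 (-1.27 to -0.79), -0.95 (-1.26 to -0.64) and -0.72 (-0.98 to -0.47) to wild type, each past 1.5-fold. With male nuclei only the astrocyte- and neuron-labelled ratios were -0.56 and -0.19, and with thinned nuclei -0.53 and -0.27, all inside 1.5-fold. Female wild-type nuclei held 124 CPM and male ones 85.5. In Pvalb-type nuclei Cort was 59.2, 34.2, 48.5 and 51.3 CPM, with a log2 ratio of -0.79 (-1.07 to -0.51) in the total-labelled library that became -0.46 when thinned. The shares of all genes lower by 1.5-fold in Pvalb-type nuclei were 5.45%, 5.7% and 5.5%.

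Npy encodes neuropeptide Y, an inhibitory peptide of both Sst-type and neurogliaform (Lamp5-type) interneurons, on chromosome 6 (49822710 to 49829507, plus strand). In Lamp5-type nuclei its level was 740.3 CPM (691 to 792) in wild type, 264 (245 to 285) total-labelled, 365 (334 to 397) astrocyte-labelled and 337 (307 to 369) neuron-labelled. The wild-type level lay 2.80-fold, 2.03-fold and 2.20-fold above the others, with log2 ratios of -1.49 (-1.63 to -1.34), -1.02 (-1.18 to -0.86) and -1.14 (-1.30 to -0.97). Genes of other interneuron types also differed between libraries in this class: Sst was 0, 34.1, 91.0 and 17.4 CPM, and Penk 1.79, 33.3, 2.04 and 2.90 CPM from 2, 89, 3 and 4 UMIs. The part of this in the Npy difference was not tested. Carriers were 45.2%, 15.5%, 30.2% and 31.2% of the class, and their level was 1458, 1235, 960.2 and 842 CPM. Both measures depend on depth. After thinning, an Npy UMI was left in 38.7% (30.1 to 47.9), 24.6% (20.6 to 28.8), 35.7% (29.2 to 42.7) and 33.3% (26.3 to 40.9) of nuclei. The intervals of the wild-type, astrocyte-labelled and neuron-labelled libraries overlapped, and that of the total-labelled library lay below the wild-type one. Of the genes tested in Lamp5-type nuclei, 5.55%, 7.29% and 7.47% lay lower by 1.5-fold. Within the wild-type library 41 male Lamp5-type nuclei held 1075 CPM and 81 female nuclei 579. Every male and female value of the 3 knockout libraries lay between 269 and 386 CPM, so both wild-type values were above all of them.

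In Sst-type nuclei Npy was 642 CPM (612 to 673), 337 (322 to 352), 384 (360 to 409) and 366 (347 to 386). Its log2 ratios were -0.93 (-1.02 to -0.84), -0.74 (-0.86 to -0.63) and -0.81 (-0.91 to -0.71), the last becoming -0.49 with male nuclei only. Pvalb-type nuclei showed the same order of wild type above the rest, with 103, 56.3, 62.7 and 63.7 CPM. The difference lay mainly in male nuclei, at 139, 57.0, 63.6 and 39.9 CPM. Female nuclei held 85.8 in wild type, 67.2 astrocyte-labelled and 81.9 neuron-labelled, both within 1.5-fold of wild type. In Cnr1-type nuclei Npy was 199, 92.8, 176 and 131 CPM, and the astrocyte-labelled ratio of -0.17 (-0.50 to 0.15) was not detectable at this depth, where 8.37%, 10.3% and 9% of genes lay lower by 1.5-fold.

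Granule neurons of the dentate gyrus showed another order for Npy. They held 6, 29, 8 and 61 Npy UMIs, or 0.383 CPM (0.141 to 0.833), 1.16 (0.778 to 1.67), 0.550 (0.238 to 1.08) and 4.89 (3.74 to 6.29). The neuron-labelled library was the highest, in male nuclei (4.61 CPM) and female nuclei (5.56 CPM) alike, and its log2 ratio to wild type was 3.68. After thinning, an Npy UMI was left in 1.04% of neuron-labelled granule nuclei against 0.174%, 0.0775% and 0.0545% in the wild-type, total-labelled and astrocyte-labelled libraries. Before thinning these shares were 3.50%, 0.287%, 0.304% and 0.435%, and the thinned wild-type level is close to that of single UMIs. In oligodendrocytes, at the depths given above, an Npy UMI was present in 0 wild-type, 0.700% of total-labelled, 1.92% of astrocyte-labelled and 0 neuron-labelled nuclei, the last allowing up to 4.29% by the limit of 3 nuclei and 5.13% by the exact interval. Npy stood at 34.1 CPM in the total-labelled oligodendrocytes, above that library's granule level, and at 5.95 CPM, from 1 UMI, in the astrocyte-labelled ones. The total-labelled value rests on 113 UMIs, most of them from 3 of 1714 nuclei, whose median was 49 UMIs of Npy. The neuron-labelled ratio stayed between 2.17 and 4.30 under the alternatives run, and 2.31% of genes in granule neurons lay higher by 1.5-fold in that library.

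**Figure D2:**
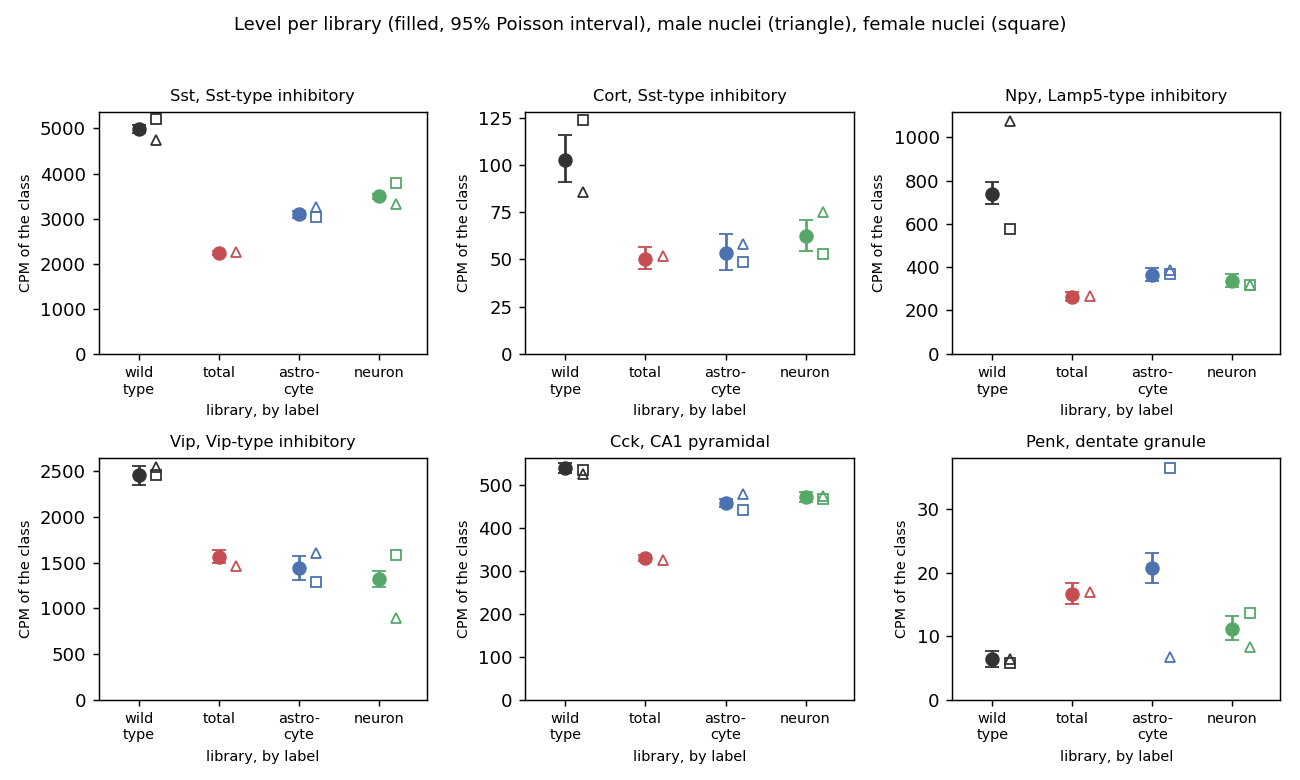
CPM of 6 neuropeptide genes in the class named above each panel, by library. Filled points are all nuclei with the 95% Poisson interval of the sum, open triangles male nuclei and open squares female nuclei (drawn from 20 female nuclei on); the wild-type library is highest in every panel except that of Penk in granule neurons, where it is lowest at 6.32 CPM.

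Tac1 encodes the precursor of substance P and neurokinin A, on chromosome 6 (7554879 to 7565834, plus strand). In Pvalb-type nuclei it was 133 CPM (121 to 146), 89.3 (82.3 to 96.8), 108 (97.7 to 119) and 124 (113 to 135). The total-labelled library was the lowest, with a log2 ratio of -0.57 (-0.75 to -0.39), and the neuron-labelled ratio of -0.10 (-0.29 to 0.09) was not detectable at this depth. In Sst-type nuclei the values were 24.95, 16.1, 38.7 and 8.70 CPM from 66, 96, 96 and 33 UMIs. They came from few nuclei: only 1.04% to 2.19% of the class were carriers. Of the 96 astrocyte-labelled UMIs 48 came from 1 nucleus, and 24 of the 66 wild-type UMIs also came from 1 nucleus. Female wild-type nuclei held 40.1 CPM and male ones 9.60, and the total-labelled ratio went from -0.63 to 0.73 with male nuclei only.

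Vip encodes vasoactive intestinal peptide, the marker of interneurons that mainly contact other interneurons, on chromosome 10 (5639218 to 5647617, plus strand). In Vip-type nuclei it was 2457 CPM (2355 to 2562) in wild type, 1567 (1496 to 1640.4) total-labelled, 1441 (1315 to 1575) astrocyte-labelled and 1317 (1228 to 1410.1) neuron-labelled. Wild type stood above the rest, and among the other 3 the total-labelled interval lay above the neuron-labelled one. Genes of other interneuron types also differed here: Sst was 93.1, 30.1, 144 and 77.3 CPM and Npy 66.2, 50.8, 47.9 and 111. The part of this in the Vip difference was not tested. The log2 ratios were -0.65 (-0.74 to -0.56), -0.77 (-0.92 to -0.63) and -0.90 (-1.02 to -0.78), each past 1.5-fold, which 4.16%, 10.6% and 6.94% of genes in Vip-type nuclei passed downwards. Carriers were 74.8%, 63.7%, 57.9% and 53.8% of the class, with 3388, 2460.1, 2597 and 2529 CPM within them. The male and female values were 2545 and 2460.1 in wild type, 1611 and 1286 astrocyte-labelled and 896 and 1584 neuron-labelled. Vip-type nuclei themselves were 11.5% of inhibitory nuclei in wild type and 5.80%, 3.69% and 5.26% in the others, from 127, 234, 57 and 80 nuclei. Of the inhibitory Vip carriers, the gate placed 95 of 135, 149 of 365, 33 of 71 and 43 of 100 in the Vip-type class. It left 27, 143, 27 and 37 of them untyped. Carriers, a share that depends on depth, were 12.2%, 9.05%, 4.59% and 6.57% of all inhibitory nuclei. The part of the gate in the Vip-type shares was not tested. Vip over all inhibitory neurons was 279, 160.01, 83.1 and 119.6 CPM. Fewer nuclei of a type and less RNA per nucleus cannot be told apart in such a pooled level. Weighting the classes as in wild type brought the pooled ratios from -0.80, -1.75 and -1.22 to -0.37, -0.79 and -0.64.

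Crh encodes corticotropin-releasing hormone, on chromosome 3 (19693401 to 19695396, minus strand). It was highest in Vip-type nuclei of every library, at 134 CPM (111 to 160), 86.9 (70.8 to 106), 50.9 (29.7 to 81.5) and 56.3 (39.2 to 78.3). These values rest on 119, 101, 17 and 35 UMIs. Wild type was highest, and the log2 ratios were -0.62 (-1.02 to -0.22), -1.39 (-2.22 to -0.65) and -1.24 (-1.83 to -0.69). The total-labelled ratio became -0.32 with male nuclei only and -0.39 with 1 more marker required, and that setting moved the astrocyte-labelled one to -0.67. In Sst-type nuclei Crh was 16.6, 12.4, 15.3 and 20.05 CPM, and no ratio there was detectable at this depth.

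Penk encodes preproenkephalin, the source of the enkephalins, on chromosome 4 (4133531 to 4138819, minus strand). Its exons share 233 bases with A830012C17Rik on the other strand, and the sources do not say whether reads were counted by strand, so reads from the shared bases may have been counted for either gene. In Vip-type nuclei Penk was 250.2 CPM (218 to 285), 167 (144 to 192), 135 (98.3 to 180.4) and 142 (114 to 175), and the log2 ratios were -0.58 (-0.87 to -0.30), -0.89 (-1.39 to -0.42) and -0.82 (-1.19 to -0.46). The neuron-labelled ratio was -0.43 with 1 more marker required and -0.55 with mixed nuclei kept. Of 253 inhibitory Penk carriers over all libraries, 31.2% were Vip-type and 39.9% untyped. Untyped inhibitory nuclei held 43.9, 66.2, 29.0 and 29.5 CPM of Penk, the total-labelled library being highest. Over all inhibitory neurons Penk was 40.9, 39.1, 15.1 and 17.2 CPM.

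In granule neurons Penk showed a different order. Its level was 6.32 CPM (5.14 to 7.69) in wild type, 16.7 (15.1 to 18.4) total-labelled, 20.7 (18.4 to 23.2) astrocyte-labelled and 11.1 (9.37 to 13.2) neuron-labelled. Wild type was the lowest and no interval overlapped it. The log2 ratios were 1.40 (1.08 to 1.73), 1.71 (1.38 to 2.05) and 0.82 (0.44 to 1.21). Female nuclei of the astrocyte-labelled library held 36.5 CPM from 201 UMIs in 754 nuclei, and its male nuclei 6.76 CPM from 32 UMIs in 684 nuclei. In wild type the male and female values were 6.39 and 5.80, in the neuron-labelled library 8.33 and 13.7, and male total-labelled nuclei held 16.9. With male nuclei only, the astrocyte-labelled ratio was therefore 0.08 and the neuron-labelled one 0.38, while the total-labelled one stayed between 1.202 and 1.44 under the alternatives that gave a value. Subtracting the oligodendrocyte level gave none there, because the total-labelled oligodendrocytes held 19.6 CPM of Penk, more than its granule neurons. The shares of all genes higher by 1.5-fold in granule neurons were 5.21%, 3.6% and 2.31%. A Penk UMI was present in 3.96%, 6.06%, 9.35% and 6.39% of granule nuclei and, after thinning, in 1.21%, 2.74%, 3.44% and 2.21%. In oligodendrocytes the unthinned shares were 0, 1.52%, 1.92% and 0. CA1 nuclei held 15.95, 15.9, 13.3 and 11.7 CPM of Penk. Outside the hippocampal classes, the 539 medium spiny nuclei of the total-labelled library held 1745 Penk UMIs, 28.3% of that library's total, against 112 UMIs in the 18 wild-type nuclei.

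Cck, the cholecystokinin gene, was present in excitatory as well as inhibitory neurons. It lies on chromosome 9 (121489824 to 121495694, minus strand). In CA1 pyramidal nuclei Cck was 541 CPM (529.6 to 552), 329.9 (322 to 338), 459 (449 to 468) and 473 (462 to 484). Wild type was highest and the total-labelled library lowest, with the remaining libraries in between. The log2 ratios were -0.71 (-0.76 to -0.67), -0.24 (-0.28 to -0.19) and -0.19 (-0.24 to -0.15), against 5.18%, 3.77% and 4.92% of all genes lower by 1.5-fold. Male and female nuclei of a library lay close together here, at 527 and 536 in wild type, 479 and 443 astrocyte-labelled and 475 and 468 neuron-labelled, with 326 in male total-labelled nuclei. CA2/CA3 nuclei (383, 258, 313 and 312 CPM) and subicular or cortical nuclei (381, 259, 339.6 and 345 CPM) had the same highest and lowest library. In granule nuclei the neuron-labelled library was the lowest instead, at 101 CPM (96.0 to 107) against 177, 118 and 158, with a log2 ratio of -0.80 (-0.90 to -0.70). Of all genes there, 5.98%, 4.98% and 5.44% lay lower by 1.5-fold. Carriers were 84.6%, 48.1%, 70.0% and 76.8% of CA1 nuclei, at 623, 519.8, 593 and 573 CPM within them. The share of carriers and the level within them both depend on depth. Thinned nuclei with a Cck UMI were 62.0%, 47.6%, 58.4% and 60.1%, against 96.9%, 86.8%, 94.5% and 95.5% unthinned at median depths of 11768, 7767, 8576 and 10320.5 UMIs. In oligodendrocytes a Cck UMI was present in 3.55%, 4.49%, 9.62% and 11.4% of nuclei, and the level there was 16.1, 44.4, 101 and 48.4 CPM.

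In Cnr1-type interneurons, which express the cannabinoid receptor CB1, Cck was 1268 CPM (1188 to 1351), 787 (750.4 to 824), 991 (931 to 1054) and 937 (890.1 to 985). Wild type was highest, and the log2 ratios were -0.69 (-0.80 to -0.57), -0.36 (-0.48 to -0.23) and -0.44 (-0.55 to -0.32). Thinning moved them to -1.07, -0.76 and -1.02, and male nuclei alone gave -0.54, -0.11 and -0.38. Vip-type nuclei had 677, 479, 533 and 1056 CPM, the neuron-labelled library being highest with a ratio of 0.64 (0.48 to 0.80), but male nuclei alone gave -0.19. In Lamp5-type nuclei, with 194 and 120 CPM in the wild-type and total-labelled libraries and 155 and 232 in the others, male nuclei alone moved the ratios from -0.69, -0.32 and 0.26 to 0.16, 0.46 and 1.28. Male wild-type nuclei held 108 CPM, from 40 UMIs, and female ones 233.

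**Figure D3:**
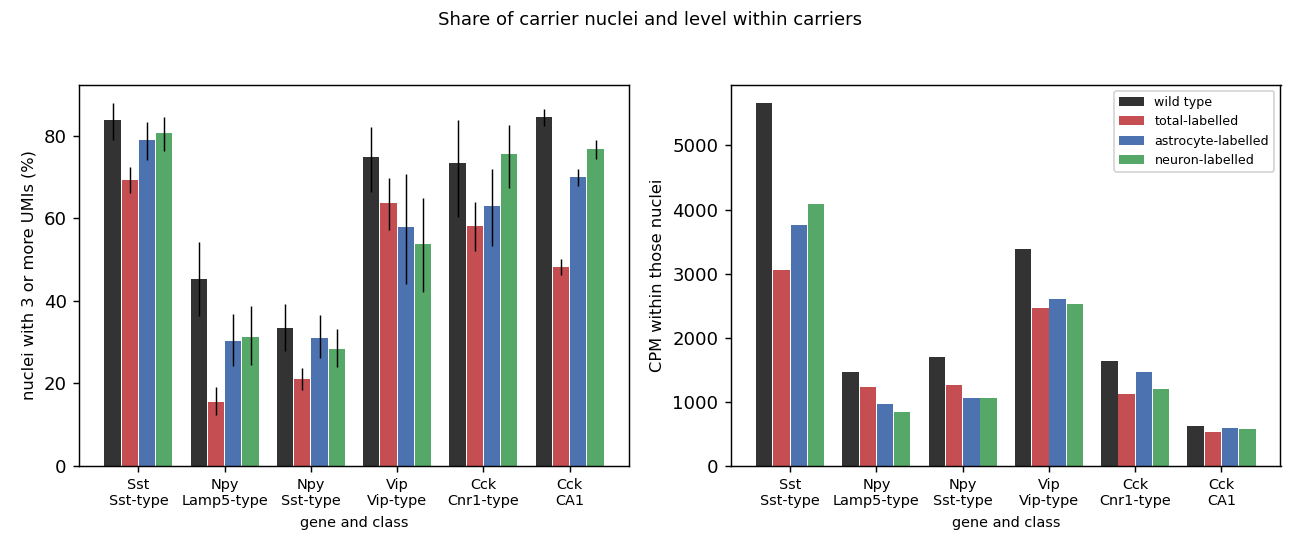
Left, percent of nuclei of the class with at least 3 UMIs of the gene, with exact 95% binomial intervals; right, CPM of the gene within those nuclei. Bars are the 4 libraries. Sst within carriers is 5669 CPM in wild type and 3059 to 4089 in the others. Cck within CA1 carriers is 519.8 to 623, against 329.9 to 541 over all CA1 nuclei. The cut of 3 UMIs is a higher CPM in a shallower nucleus, so differences within carriers depend on depth.

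Pdyn encodes prodynorphin, on chromosome 2 (129686565 to 129699844, minus strand). In granule neurons, where dynorphin fills the mossy fibres, its level was 10.1 CPM (8.63 to 11.9), 8.73 (7.61 to 9.97), 8.05 (6.66 to 9.65) and 8.26 (6.74 to 10.02). The intervals of the 4 libraries overlapped, and the ratios of -0.22, -0.33 and -0.30 were not detectable at this depth. In Sst-type nuclei Pdyn was 7.18, 11.9, 8.88 and 9.76 CPM from 19, 71, 22 and 37 UMIs, and no ratio there was detectable either. Nts encodes neurotensin, on chromosome 10 (102481756 to 102490486, minus strand). In CA1 nuclei it was 17.5 CPM (15.6 to 19.7), 12.2 (10.7 to 13.7), 12.2 (10.7 to 13.9) and 11.9 (10.2 to 13.7). Wild type was highest and the other 3 were nearly equal, with ratios of -0.53, -0.52 and -0.56. In subicular or cortical nuclei the total-labelled library alone was low, at 11.3 CPM against 17.0, 18.3 and 16.1.

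The 10 members and 9 typed classes gave 47 pairs of a gene and a class with at least 100 UMIs. Wild type was the highest library in 25 of them, against 33.1% of all 94783 such pairs over all genes, the lowest in 8, against 23.6%, and in between in 14. It was highest by at least 1.5-fold over each knockout library in 8 pairs, against 0.929%, and lowest by that much in 5, against 1.06%. Those 5 were Penk in granule neurons, Sst in Lamp5-type nuclei (0 UMIs in wild type) and in CA1 nuclei, and Sst and Penk in subicular or cortical nuclei. In CA1 the astrocyte- and neuron-labelled Sst ratios turned to -1.53 and -1.71 with mixed nuclei kept and the neuron-labelled one to -0.41 with thinning, and 23 of its 37 UMIs came from 1 nucleus. In subicular or cortical nuclei 61 of the 199 total-labelled Sst UMIs came from 1 nucleus, and 58 of the 139 neuron-labelled ones from 1 nucleus. The neuron-labelled Penk ratio in subicular or cortical nuclei turned to -0.17 with 1 more marker required. Penk in granule neurons came within 1.5-fold of wild type in male astrocyte- and neuron-labelled nuclei. Where a member reached at least 10% of its highest wild-type level, wild type was highest in 19 of 25 pairs and lowest in 1 (Pdyn in Sst-type nuclei), but picking pairs by the wild-type level favours that order. With pairs picked by the mean over the 4 libraries wild type was highest in 19 of 27. In the 22 pairs where the member stayed under 10% of its highest wild-type level, wild type was highest in 6 and lowest in 7. The 8 pairs highest by 1.5-fold were Npy in Lamp5-, Sst- and Pvalb-type nuclei, Cort in Sst-type nuclei, Vip and Crh in Vip-type nuclei and, below 10% of the gene's highest wild-type level, Penk in Pvalb-type and Sst in Cnr1-type nuclei. The last of these reversed under several alternatives, and 119 of its 134 wild-type UMIs came from 1 of 60 nuclei. Npy and Cort in Sst-type nuclei and Crh in Vip-type nuclei came within 1.5-fold of at least 1 knockout library in male nuclei alone. Cort also did so with thinning, and Crh with 1 more marker required. Of all genes with at least 100 UMIs in the class, 1.26% were highest in wild type by this much in Lamp5-type, 1.04% in Sst-type, 0.997% in Pvalb-type, 0.956% in Vip-type and 2.59% in Cnr1-type nuclei. The 3 ratios share the same wild-type library, so their common direction is not 3 separate observations. The wild-type library was also the deepest per nucleus over all its nuclei, although in Vip-type nuclei the neuron-labelled library had the higher median (7193 UMIs against 6746). Its summed ribosomal protein transcripts were highest in Vip-type nuclei too (3348 CPM against 2761, 2088 and 2167), in Lamp5-type nuclei (3427 against 2868, 2324 and 2112) and in granule neurons (3626 against 2796, 2450.2 and 2355), where Penk was lowest in wild type. The part of this measure in the neuropeptide ratios was not tested.

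**Figure D4:**
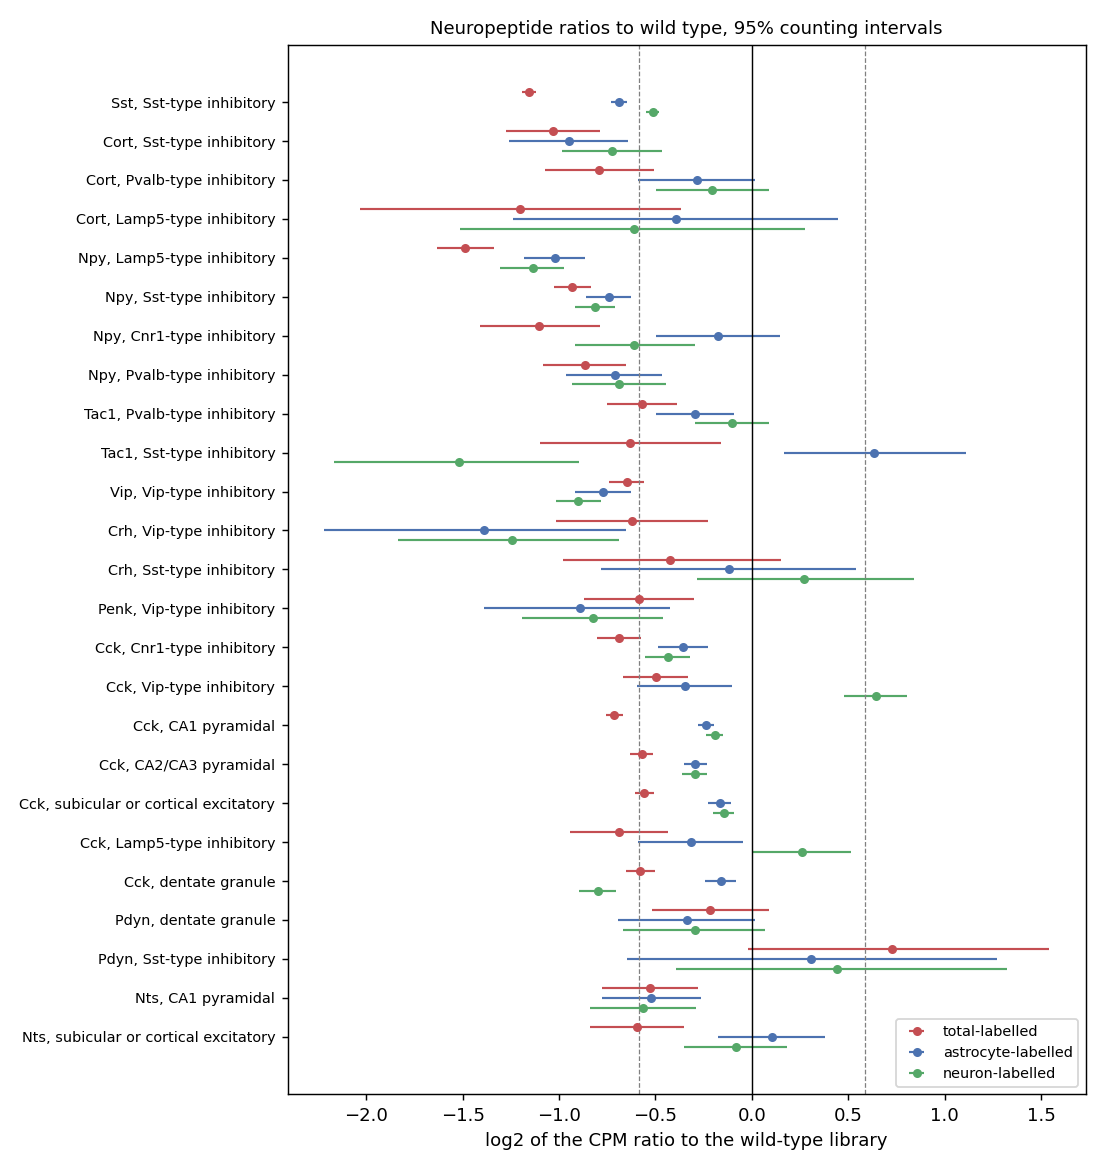
Log2 ratio of CPM to the wild-type library for the 25 pairs of gene and class picked by the wild-type level, with 95% counting intervals; colours are the 3 knockout libraries and dashed lines mark 1.5-fold. Most points lie left of 0, which marks equal levels, and Tac1 in Sst-type nuclei and Cck in Vip-type nuclei lie on both sides of it.

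Over all inhibitory neurons, 5 of 10 members lay at least 1.5-fold lower in the total-labelled library (Sst, Npy, Vip, Crh and Cort) against 6.71% of 13977 genes, and 2 higher (Pdyn and Nts) against 4.53%. In the astrocyte-labelled library 6 were lower (Sst, Npy, Vip, Penk, Crh and Cort) against 5.82% and 1 higher (Nts) against 3.38%. In the neuron-labelled library 4 were lower (Npy, Vip, Penk and Crh) against 5.94% and 0 higher against 2.98%. The median log2 ratio of the members was -0.67, -0.65 and -0.49, against -0.05, -0.05 and -0.03 over all genes. Pdyn and Nts are rare in these nuclei, with at most 5.08 and 3.29 CPM. The pooled inhibitory values also depend on class make-up, since Vip-type nuclei were 11.5% of the wild-type inhibitory nuclei and 5.80%, 3.69% and 5.26% elsewhere. With classes weighted as in wild type, the total-labelled Vip ratio lay inside 1.5-fold, while the astrocyte- and neuron-labelled ones stayed past it. In excitatory neurons 9 members had enough UMIs. The total-labelled library had 5 higher (Sst, Npy, Vip, Penk and Tac1) against 2.81% of 17241 genes and 1 lower (Cck) against 6.21%. The astrocyte-labelled library had 2 higher (Sst and Npy) against 2.08% and the neuron-labelled library 3 (Sst, Npy and Crh) against 2.09%, and both had 0 lower, against 5.82% and 4.87%. The Crh call rests on 34 UMIs, 10 of them from 1 nucleus, against 23 in wild type, and its ratio of 0.73 (-0.08 to 1.56) was not detectable at this depth.

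The Sst, Npy, Vip and Tac1 values in excitatory nuclei are small beside those in interneurons. Sst was 1.70, 6.79, 3.39 and 3.50 CPM there, and a Sst UMI was present in 1.31%, 1.83%, 2.13% and 1.93% of nuclei. The total-labelled library, the highest, also held Sst at 63.4 CPM in oligodendrocytes, from 210 UMIs, where the other 3 libraries held 0, and 0.350% of those nuclei were Sst carriers. The other 4 members called higher in that library also had higher CPM in its oligodendrocytes than in its excitatory neurons. Npy stood at 34.1 against 1.69 CPM, Penk at 19.6 against 11.1 and Tac1 at 10.9 against 2.09. Vip stood at 2.42 (1.04 to 4.76) against 1.88 (1.64 to 2.15), with overlapping intervals. The classes differ in depth, with a median of 1317 UMIs in oligodendrocytes and 6461 in excitatory neurons. The share of nuclei with a UMI was higher in oligodendrocytes for Tac1 (1.63% against 0.864%) and Npy (0.700% against 0.672%). It was lower there for Penk (1.52% against 4.85%), Vip (0.233% against 0.659%) and Sst (1.05% against 1.83%). The oligodendrocyte Npy value came mostly from 3 nuclei and the Sst value mostly from 6. Keeping nuclei with markers of more than 1 lineage turned the astrocyte- and neuron-labelled Sst ratios in excitatory neurons from 0.99 and 1.04 to -0.02 and -0.12. The part of free RNA and of joined nuclei in these values was not tested.

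Some neuropeptides that share an interneuron type were often carried by the same nuclei, and others were not. Of 2168 inhibitory Sst carriers over the 4 libraries, 30.4% (28.5 to 32.4) also carried Npy, against 8.87% of other inhibitory nuclei, and 9.55% carried Cort, against 0.927%. By library the share of Sst carriers with Npy was 33.6%, 26.9%, 33.6% and 32.3%. Seen from the rarer gene, 78.7% of 263 Cort carriers were Sst carriers and 60.1% were Npy carriers. Cck and Sst kept apart, with Cck in 1.29% of Sst carriers against 17.8% of other inhibitory nuclei. Of 671 Vip carriers, 21.6% carried Cck, 18.5% Penk and 7.90% Crh, against 12.7%, 1.71% and 0.5704% of other nuclei. For Cck the intervals overlapped in the wild-type and astrocyte-labelled libraries and not in the total- and neuron-labelled ones. The share of Vip carriers with Penk was 34.1% in wild type, 11.8% total-labelled, 21.1% astrocyte-labelled and 20.0% neuron-labelled, the highest in the library where Penk itself was highest in Vip-type nuclei. That with Crh was 19.3%, 5.75%, 4.23% and 3.00%. For Crh the intervals of Vip carriers and other nuclei overlapped in the astrocyte- and neuron-labelled libraries, where 3 nuclei each carried both. Penk and Cck, both present in Vip-type nuclei, were seldom carried together: 4.74% of 253 Penk carriers carried Cck, against 13.7% of other nuclei. The share was the lower one in each library, with overlapping intervals in the total- and astrocyte-labelled libraries and not in the wild-type and neuron-labelled ones. Crh carriers, 34, 33, 11 and 18 by library, carried Sst in 14.7%, 18.2%, 27.3% and 44.4%, against 32.2%, 23.5%, 27.4% and 29.3% of other nuclei, lower in some libraries and higher in the neuron-labelled one, with overlapping intervals in each. Tac1 carriers, 380 in all, carried Cort in 17.4%, against 2.52% of other nuclei. They carried Sst in 38.5%, 26.2%, 40.6% and 30.0% by library, against 31.1%, 23.3%, 26.7% and 29.5% of other nuclei, with overlapping intervals in each library. No member was carried by 32.1%, 52.2%, 47.9% and 37.7% of inhibitory nuclei, and 3 or more members by 6.14%, 2.03%, 2.78% and 3.88%. These shares depend on depth: thinned to 2000 UMIs and counted from 1 UMI, nuclei without any member were 29.4%, 39.1%, 42.3% and 36.4%.

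The genes whose levels followed each member most closely over 40 sums of a class in a library were found by Pearson correlation of log2(CPM + 1) over 17586 genes. The sums share libraries and classes, so the correlations are descriptions. Vip and Crh were among the 3 genes most like each other (r = 0.93), and both were led by Grpr, the receptor of gastrin-releasing peptide (0.96 for each), with Ogt the third for Vip (0.90) and Uchl3 for Crh (0.91). Npy was closest to Gad2, which makes GABA and served as a gate marker (0.96), Pnoc, the nociceptin precursor (0.95), and Gm14204 (0.94). Cort was closest to Adamts12 (0.96) and to the transcription factor Lhx6 (0.95), a gate panel marker. Sst was closest to Lypd6b (0.92), Gna14 and Ugdh (0.87 each). Cck was closest to Cadps2, a dense-core vesicle priming factor (0.85), Zbtb16 (0.81) and Cdh11 (0.79). Tac1 was closest to Gm826 (0.88), Nxph2 and Lrrc38 (0.87 each). Penk was closest to A830012C17Rik (0.84), the gene on its other strand, then Crb1 (0.78) and Tspear (0.76). Nts was closest to Fn1, a gate marker (0.91), Gm5149 (0.91) and Erg (0.87), and Pdyn to Krt9 (0.81), Gm50105 (0.80) and the granule gate marker Trpc6 (0.78).

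Other genes of the peptide pathway were taken from lists of receptors, processing enzymes, binding or degrading enzymes and further neuropeptides. Beside the counts below, the shares of all genes in inhibitory neurons were 4.53%, 3.38% and 2.98% higher and 6.71%, 5.82% and 5.94% lower, so that 0 or 1 call in a list of this size is near the background. In inhibitory neurons 7 of 16 further neuropeptides had enough UMIs, and 5, 3 and 3 of them lay at least 1.5-fold lower in the total-, astrocyte- and neuron-labelled libraries, with 0, 0 and 1 higher. Cartpt (the CART peptide) was 12.8, 8.42, 6.75 and 7.36 CPM, Calca (calcitonin and CGRP) 17.9, 5.196, 10.54 and 7.02, and Tac2 (neurokinin B), itself a marker of the Vip-type gate, 85.8, 45.4, 21.1 and 40.05. All 3 were highest in wild type and past 1.5-fold in each knockout library. Of the 16 receptors tested, 3, 1 and 0 were higher and 0, 3 and 3 lower. Crhr1, the main receptor of the Crh peptide, was 2.70 CPM in wild type, 8.07 total-labelled and 5.11 astrocyte-labelled. Vipr1 and Vipr2 encode receptors of vasoactive intestinal peptide. Vipr1 was 1.12 CPM in wild type and 2.91 total-labelled, and Vipr2 was 2.97 in wild type, 1.65 astrocyte-labelled and 1.29 neuron-labelled. The wild-type levels of these receptors are low and rest on few UMIs, and no intervals are given for them. Among 15 processing and granule genes 0 were higher and 1, 2 and 0 lower. Pcsk1n, which encodes proSAAS, was 347 CPM in wild type and 226 total-labelled, and in the astrocyte-labelled library the convertase Pcsk1 was 24.8 CPM against 39.9 and the granin Scg2 119 against 185. None of the 9 binding or degrading genes passed 1.5-fold in inhibitory neurons.

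In excitatory neurons, where 2.81%, 2.08% and 2.09% of all genes were higher and 6.21%, 5.82% and 4.87% lower, 1 of 15 processing genes passed 1.5-fold, a share near the background. Pcsk1 stood at 79.4 CPM in wild type, against 37.8 for the astrocyte-labelled nuclei. Of 20 receptors tested, 3, 2 and 0 were higher and 0, 2 and 0 lower. The kappa opioid receptor gene Oprk1, on whose product dynorphin acts, was 1.18 CPM in wild type against 2.78 in the total-labelled library. Tacr1, the substance P receptor, was 1.61 CPM in wild type, 3.58 total-labelled and 3.05 astrocyte-labelled, and Vipr2 0.239 against 0.506 total-labelled. Of 8 binding or degrading genes 2 were lower in the astrocyte-labelled library, the peptidases Mme (3.50 CPM in wild type, 2.30 there) and Dpp4 (5.05 and 2.53). Among 9 further neuropeptides, 2, 2 and 1 were higher and 1, 2 and 1 lower, and Tac2 passed 1.5-fold upwards in all 3, at 0.0895, 0.707, 0.218 and 0.184 CPM. These rest on 6, 81, 15 and 11 UMIs, and the intervals of the astrocyte-labelled (-0.16 to 2.94) and neuron-labelled (-0.52 to 2.76) log2 ratios include 0.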

How the data were processed

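Hippocampal nuclei were cleaned on iodixanol, per the labels' protocols. The authors deposited, for each library, a matrix of raw UMI counts, whole numbers that had not been normalized. The submitters' processing notes name Cell Ranger ARC 2.0.0 and mm10 (GRCm38). Further upstream steps were not given. The members, gene lists and comparisons were chosen with earlier results of these data known.

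Nuclei were kept with at least 500 genes and at most 5% mitochondrial UMIs (59713 of 60288 barcodes). Nuclei with 3 or more markers of a glial type were glial. Dentate granule nuclei needed 5 of 9 markers. Other nuclei needed 3 UMIs from the excitatory and inhibitory panels, with an inhibitory share of at least 0.75 or at most 0.25. Between these limits, or with glial markers too, they were mixed and left out, which was the only treatment of doublets, since no doublet caller was run. Types within a lineage needed 2 own markers and a panel score 1.25 times the next. Of the inhibitory nuclei 1159 and of the excitatory nuclei 2484 lay within 10% of that limit. The panels hold none of the 10 members and were fixed before the files were opened, but the scoring rule was not. It was settled after several trial versions, which differed in scaling, dominance, number of markers and competing types, and the granule gate was added later. In each trial the members' levels by class, pooled over libraries, were in view and were used to judge purity. Levels by genotype were not. Agreement of a member with the type named after it is therefore no independent check of a gate. The trial versions are not kept in the results. Panels for mossy cells and for the developmental origins of interneurons were fixed but not used, and Pde10a was left out of the medium spiny panel.

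UMIs were summed per class and library and divided by all UMIs of the class (CPM). Sums carry exact Poisson, ratios exact conditional binomial and shares exact Clopper-Pearson intervals at 95%, which cover counting error only. For a share of 0 the limit from 3 counts is also given. A gene entered a comparison with at least 100 UMIs over the 4 libraries. The interval of ratios was also run on simulated Poisson counts, the case it is built for. That run does not check it where the UMIs of a gene are clumped in few nuclei. All members were described. For each member the 3 genes most alike were named, except for one item that is not reported here, and from the lists the genes past 1.5-fold the same way in all 3 knockout libraries with at most 3 further genes a list. Coordinates are from GENCODE M21. Python 3.11.15, numpy 2.4.6, pandas 2.3.3, scipy 1.17.1 and matplotlib 3.10.9 were used. The following were chosen after values had been seen: leaving out the deepest 10% of nuclei, weighting classes to wild-type shares, the separate values of female nuclei, the limit of 10% that picked the 25 pairs, the counts of pairs with wild type highest or lowest, also over all 47 pairs and over pairs picked by the mean of the libraries, and the description of Penk and Npy in granule neurons and of Sst in Pvalb-type nuclei. The alternative with male nuclei only was planned.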

Additional observations from a re-analysis of the deposited data

How the results depend on the processing

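No paired analysis was possible because each genotype has 1 library. At 2-fold the inhibitory counts of 7, 7 and 4 members (total-, astrocyte- and neuron-labelled) became 4, 4 and 2, and the astrocyte-labelled excitatory count went from 2 to 0. That count was 4 after subtracting the oligodendrocyte level, and the neuron-labelled excitatory count went from 3 to 5 with thinning. The other alternatives left these counts within 1.5 times. The 195 single ratios with at least 100 UMIs over the 4 libraries and a wild-type UMI gave 1778 alternative values, of which 1464 lay inside the main counting interval, 286 moved out of it without reversing a call and 28 reversed one. The settings differed widely in this. All 195 stayed inside with at least 1000 detected genes and with no limit on mitochondrial UMIs. With male nuclei only 98 stayed inside, 85 moved and 9 reversed. Thinning left 119 inside, moved 68 and reversed 6. Subtracting the oligodendrocyte level left 117 inside, moved 48 and reversed 1. In pooled lineages, Nts in inhibitory neurons became -0.071 (total-labelled, oligodendrocyte level subtracted) and -0.19 (astrocyte-labelled, male nuclei), and Sst in excitatory neurons -0.024 and -0.12 (astrocyte- and neuron-labelled, mixed nuclei kept). With male nuclei only, Tac1 in Sst-type nuclei became 0.73 and Cck in Lamp5-type nuclei 0.16 (both total-labelled), and Cck in Vip-type nuclei -0.19 (neuron-labelled). Tac1 in Sst-type nuclei became -0.58 without the deepest 10% of nuclei (astrocyte-labelled), and Npy in granule nuclei -1.16 with thinning (total-labelled). Sst in Cnr1-type nuclei reversed to 2.11, 0.24 and 1.08 (total-, astrocyte-, neuron-labelled) with 1 more marker, to 1.52, 1.49 and 1.89 with male nuclei, and to 0.62 and 0.63 (total- and neuron-labelled) without the deepest nuclei. Sst in Vip-type nuclei reversed to 1.35 with male nuclei (total-labelled) and, astrocyte-labelled, to -3.52, -0.11 and -0.14 with 1 more marker, male nuclei and thinning. Sst in CA1 nuclei reversed to -1.53 and -1.71 (astrocyte- and neuron-labelled, mixed nuclei kept) and -0.41 (neuron-labelled, thinned). With thinning, Cck in Sst-type nuclei became -0.43 and -0.25 (total- and astrocyte-labelled) and Npy in Vip-type nuclei -0.020 (neuron-labelled), and with 1 more marker Penk in subicular or cortical nuclei became -0.17 (neuron-labelled). The causes were not tested. Levels resting on few UMIs or on 1 sex are the least certain.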
